A study of Mus musculus with 16 samples.

Results

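The earliest step of the small RNA time course set mouse embryonic stem cells 12 h after release from the naive state against the same line at 0 h. MicroRNAs were measured one hairpin arm at a time, an arm being the 5p or the 3p strand of a precursor hairpin. Every arm with a value above 0 in at least 2 of the 4 libraries was a member, which gave 1258 of the 1696 arms in the table. These arms came from 754 of its 848 hairpins, and 1010 of them were above 0 in all 4 libraries.

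The 12 h cells were wild-type v65 embryonic stem cells (129/C57BL/6 background, passage 9 to 11) kept for 12 h in N2B27 with bFGF and KSR. The 0 h cells were the same line in 2iL, a medium with inhibitors of MEK and GSK3 plus the cytokine LIF, which holds stem cells in the naive state. Both groups came from this 1 line, and each held 2 libraries. The labels call these biological replicates without saying what was repeated, so the p-values below measure the spread between these libraries. The series holds 16 samples, 8 of them small RNA libraries, and libraries of 24 h and 48 h enter the estimate of the spread and are quoted for single arms.

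MicroRNAs are short guides loaded into Argonaute proteins, and they recognise target transcripts mainly through the seed, bases 2 to 8 from the 5′ end. Mouse embryonic stem cells are known for the miR-290 cluster, a single primary transcript whose products share seeds of the AAGUGC type and speed the G1 to S transition. The related miR-302 cluster, which also encodes miR-367, is the primed-state and epiblast counterpart, and miR-17-92, miR-106a-363 and miR-106b-25 are paralogous clusters tied to proliferation. The microRNAs of the let-7 family are held back in stem cells by LIN28 and accumulate in differentiated cells.

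The mature sequences below are those on which the main contrasts rest, from RefSeq on GRCm38.p6, written 5′ to 3′ with the seed in capitals. The first set holds arms that were higher at 12 h. It shows that miR-132-3p and miR-212-3p carry the same seed, while the co-transcribed miR-23a-3p and miR-27a-3p do not.
miR-21a-5p: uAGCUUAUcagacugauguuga
miR-212-3p: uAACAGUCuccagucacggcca
miR-132-3p: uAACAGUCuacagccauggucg
miR-22-3p: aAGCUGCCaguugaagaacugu
miR-23a-3p: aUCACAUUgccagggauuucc
miR-27a-3p: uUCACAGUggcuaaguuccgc
miR-24-2-3p: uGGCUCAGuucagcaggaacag

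The second set holds arms that were lower at 12 h. The seeds of miR-106a-5p and miR-20b-5p are identical, those of miR-363-3p and miR-367-3p are identical although the clusters lie on different chromosomes, and that of miR-18b-5p differs from the miR-106a seed.
miR-106a-5p: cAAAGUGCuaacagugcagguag
miR-20b-5p: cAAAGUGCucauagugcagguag
miR-18b-5p: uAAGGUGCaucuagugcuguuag
miR-363-3p: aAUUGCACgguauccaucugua
miR-367-3p: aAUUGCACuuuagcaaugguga
miR-200a-3p: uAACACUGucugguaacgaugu
miR-125b-1-5p: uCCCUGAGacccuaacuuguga
miR-211-5p: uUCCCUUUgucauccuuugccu

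The third set compares the stem cell clusters. The products of miR-290 and of miR-302 shown first share the seed AAGUGCU, whereas miR-302c-3p, miR-293-3p and miR-290-3p carry other seeds.
miR-294-3p: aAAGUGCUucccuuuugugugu
miR-295-3p: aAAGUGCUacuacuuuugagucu
miR-291a-3p: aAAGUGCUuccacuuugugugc
miR-302b-3p: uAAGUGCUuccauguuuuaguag
miR-302d-3p: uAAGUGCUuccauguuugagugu
miR-302c-3p: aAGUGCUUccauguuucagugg
miR-293-3p: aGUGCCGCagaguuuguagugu
miR-290-3p: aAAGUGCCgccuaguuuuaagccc

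The deposited values are a relative signal in which every library sums to 110000, and a level of 1 is therefore 1 part in 110000 of the microRNA signal of that library. The steps between low values returned 6935155 and 7566175 reads for the 12 h libraries and 6082929 and 5441383 reads for the 0 h libraries. One read was worth 0.0145 to 0.0202 in these libraries, and 3 reads, the limit that a count of 0 allows for counting error, 0.0436 to 0.0607. The replicate libraries of 12 h were correlated at 0.999 and those of 0 h at 0.996 over arms. The 12 h pair lay closer together than the other pairs, yet its counts differed by more than sampling noise (chi-square over degrees of freedom 7.5, against 74.9 for the 0 h pair).

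Stem cell microRNAs dominated both groups, and the defining miR-290 cluster held 41.4% and 40.9% of the signal at 12 h and 40.2% and 40.1% at 0 h. Arms typical of other cell types are given below as whole lists. The measurement is on bulk RNA, so fewer cells of a type and less of a microRNA per cell cannot be told apart. Because every library has the same total, a difference is a change in share, and a large gain of one arm lowers all others slightly.

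Of the 1258 members, 714 had a mean of at least 0.5 over the 8 libraries and were tested with limma on log2(value + 0.1). The other 544 were not tested. None of them passed a level of 1.01 in the 4 libraries, and together they made up 48.2 to 61.0 of the 110000 units of a library. At a Benjamini-Hochberg adjusted p below 0.05, 177 of the 714 arms differed between 12 h and 0 h, which is 24.8% of those tested. Among them 64 rose (8.96%) and 113 fell (15.8%). By distinct mature sequence or unmatched arm, 54 rose and 108 fell. Without adjustment, 282 of the 714 arms had a limma p below 0.05.

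Most changes at 12 h were small. Over all 714 arms the median log2 change was −0.09, with quartiles at −0.30 and 0.16, and the median standard error was 0.14. The rises had a median of 0.65 and the falls of −0.56, while a change of 2-fold or more was reached by 17 arms that rose and 11 that fell. The smallest change called was 0.29. In 485 arms (67.9%) the groups did not overlap, which is a description of 2 libraries against 2 and not a test.

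**Figure D1:**
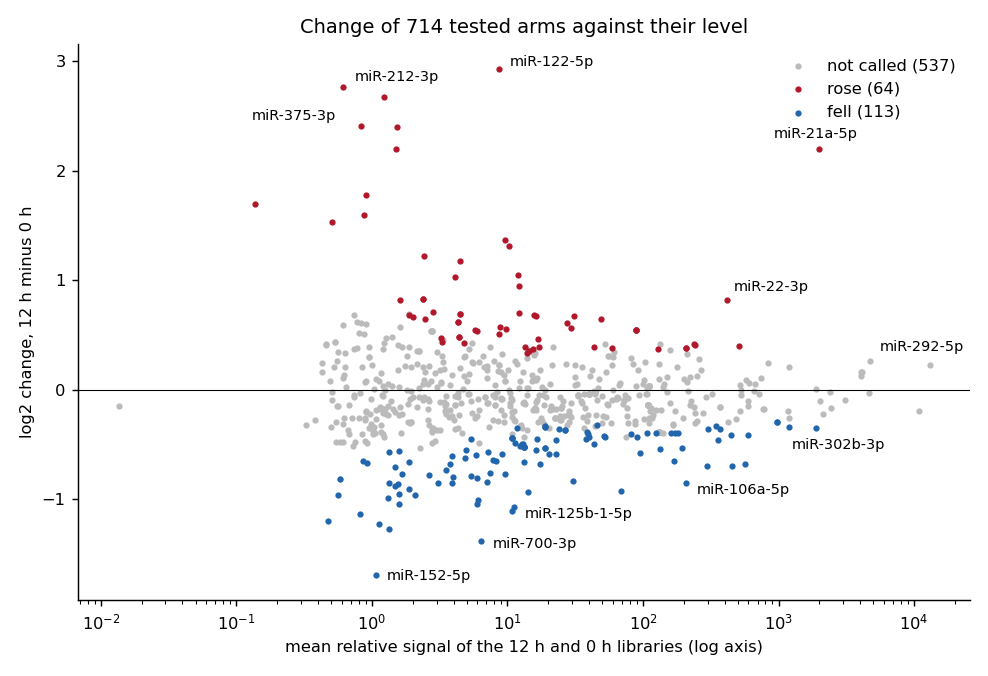
Log2 change from limma (12 h minus 0 h, vertical axis) against the mean relative signal of the 12 h and 0 h libraries (horizontal log axis) for the 714 tested arms, each point 1 arm. The 64 rises (red) reach 2.93 for miR-122-5p, miR-21a-5p stands out among abundant arms at 2.20, and the 113 falls (blue) reach −1.69 for miR-152-5p.

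The calls depended on the libraries. Without 12 h replicate 1 the number of arms called was 68, with 30 rises and 38 falls, and without 12 h replicate 2 it was 83, with 31 rises and 52 falls. Without 0 h replicate 2, 74 arms fell. The balance of directions depended on the scaling: rises were 36.2% of the calls here, 24.8% after TMM scaling (53 rises and 161 falls) and 46.9% with edgeR's quasi-likelihood test on the recovered reads (83 rises and 94 falls). Of the 177 calls, edgeR also made 155 and gave all 177 the same sign.

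The largest change of any arm with a mean of at least 50 units was the rise of miR-21a-5p. This arm, widely studied for targets such as Pdcd4, had 3192 and 3319 units at 12 h, against 723.8 and 696.7 at 0 h. Both 12 h libraries lay far above both 0 h libraries, and the change was 4.58-fold (log2 2.20, SE 0.09, limma adjusted p = 4.4e-09). It was called under all 16 alternatives, and no other arm among the 20 most abundant rose. At 24 h the levels were 2456 and 2462 and at 48 h 2448 and 2647, so the 12 h libraries were the highest of the time course. The hairpins miR-21b and miR-21c are near copies, and the rise of miR-21c-5p (1.41 and 1.497 units at 12 h, against 0.324 and 0.384 at 0 h) and of miR-21b-5p (0.857 and 0.741, against 0.198 and 0.223) cannot be told apart from variant reads of miR-21a.

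The neuron-associated pair miR-132 and miR-212 rose on all 4 arms, from hairpins that lie together on chromosome 11 (GRCm38.p6, chr11:75173403-75173744, plus strand). Their common primary transcript is known as a target of the transcription factor CREB. Levels of miR-212-3p were 1.25 and 1.05 at 12 h, or 79 and 72 reads, against 0.109 and 0.0604 at 0 h, or 6 and 3 reads (log2 2.77, SE 0.27, limma adjusted p = 1.8e-05). Resting on 6 and 3 reads at 0 h, the log2 change was between 0.99 (pseudocount of 1) and 3.77 (edgeR) over the alternatives that tested this arm, and it was called in each of them. Its 5p arm had 2.04 and 2.34 units at 12 h and 0.235 and 0.284 at 0 h (log2 2.68, SE 0.20, adjusted p = 1.5e-06). The miR-132-5p arm had 2.58 and 2.73 units at 12 h and 0.362 and 0.487 at 0 h (log2 2.40, SE 0.20, adjusted p = 3.8e-06), and miR-132-3p had 2.49 and 2.57 at 12 h and 0.578 and 0.383 at 0 h (log2 2.20, SE 0.21). All 4 arms stayed below 3 units, and no 12 h library overlapped a 0 h library. The seed shared by miR-132-3p and miR-212-3p, AACAGUC, summed to 3.74 and 3.62 units at 12 h and 0.686 and 0.443 at 0 h (log2 2.53, SE 0.20, adjusted p = 6.7e-09 over seed families).

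On the log2(value + 0.1) scale the largest change among arms that passed the test was that of miR-122-5p, known as the dominant microRNA of hepatocytes. On recovered reads with edgeR its log2 change was 3.04, below the 3.77 of miR-212-3p. It had 15.3 and 15.6 units at 12 h, or 965 and 1074 reads, against 1.90 and 2.00 at 0 h, or 105 and 99 reads (log2 2.93, SE 0.15, limma adjusted p = 2.9e-08). The groups were far apart and the replicates close. The level was 4.19 and 5.24 at 24 h and 1.26 and 1.43 at 48 h, so that the 12 h libraries stood alone in the time course. The endocrine pancreas microRNA miR-375-3p had 1.30 and 1.61 units at 12 h and 0.163 and 0.223 at 0 h (log2 2.41, SE 0.17, adjusted p = 1.1e-06), and it went on to 10.2 and 10.02 units at 24 h and 11.3 and 13.7 at 48 h. The other 3 tested arms of the liver, gut and pancreas list were not called higher: miR-194-2-5p fell (20.5 and 21.7 at 12 h, 25.5 and 28.6 at 0 h), and miR-192-5p had 67.2 and 68.9 units at 12 h and 68.8 and 63.4 at 0 h. Of the 12 arms of that list in the table, 4 were at 0 in all 4 libraries.

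**Figure D2:**
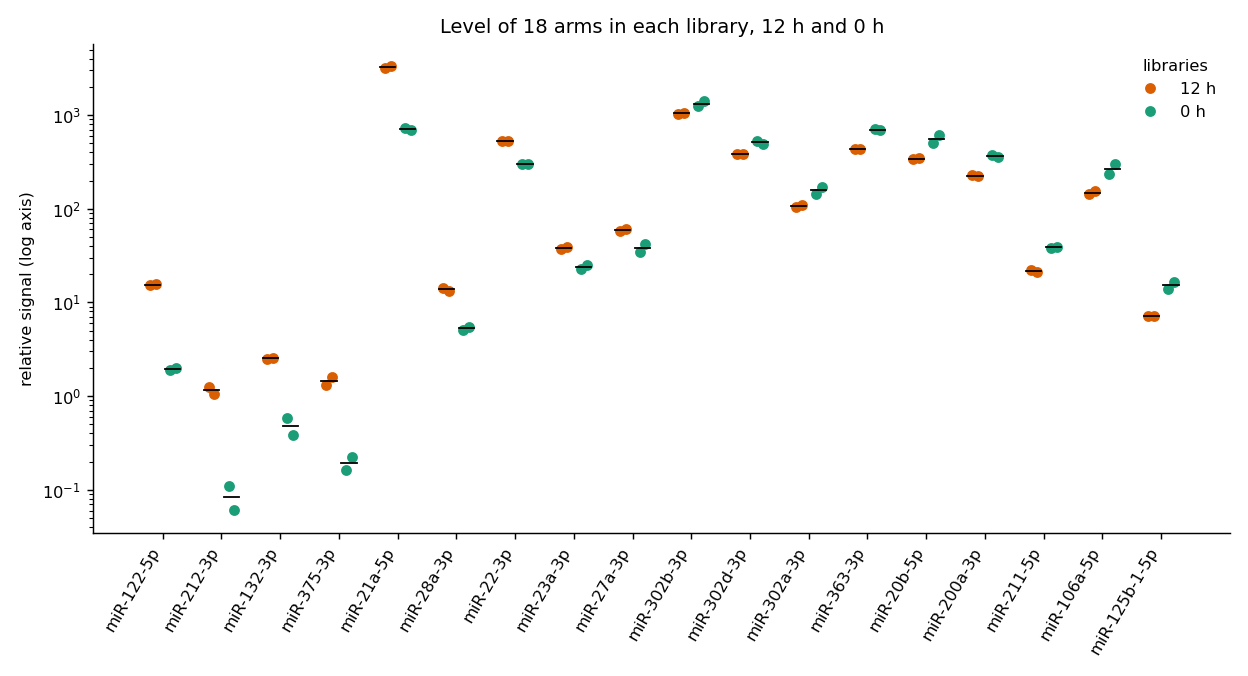
Relative signal (log axis) of 18 arms in each library, 12 h (orange) left of 0 h (green), with points for the 2 libraries of a time and a line at their mean. From miR-122-5p to miR-27a-3p both 12 h libraries lie above both 0 h libraries, and from miR-302b-3p to miR-125b-1-5p they lie below.

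The hairpins of miR-28a, miR-22 and miR-335 rose on both arms. The arms of miR-28a, which is encoded in an intron of the Lpp gene and was singled out after its values were seen, had 14.1 and 13.4 units (3p) and 15.01 and 14.2 units (5p) at 12 h, against 5.06 and 5.51 (3p) and 5.15 and 6.53 (5p) at 0 h, or log2 1.36 and 1.32. The widely expressed miR-22-3p, second to miR-21a-5p among rises of abundant arms, had 534 and 530.6 units at 12 h and 303.2 and 298.7 at 0 h (log2 0.82, SE 0.12, limma adjusted p = 4.8e-04), and its 5p arm rose by a log2 change of 1.03. Both arms of miR-335, from an intron of the imprinted gene Mest, rose too: the 3p arm had 273.2 and 267.1 units at 12 h, against 197.6 and 206 at 0 h (log2 0.42, SE 0.10). The 3p arm was not called without 12 h replicate 1 (adjusted p = 0.12) or without 12 h replicate 2 (adjusted p = 0.085). At 24 h and 48 h miR-22-3p was at 320 and 352.4 and at 260.4 and 202.3 units, whereas miR-335-3p was at 300.4 and 307.2 and at 207.7 and 239.

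The cluster of miR-23a, miR-27a and miR-24-2 (GRCm38.p6, chr8:84208527-84208896, plus strand), which is transcribed as 1 unit, rose in all 5 of its tested arms. None of the 3 tested arms of miR-23b and miR-27b, from the paralogous cluster, was called by limma. Levels of miR-23a-3p were 37.3 and 39.4 at 12 h and 22.7 and 25.3 at 0 h (log2 0.68, SE 0.12, limma adjusted p = 0.0012), and those of miR-27a-3p were 57.9 and 60.6 at 12 h and 34.4 and 41.5 at 0 h (log2 0.65, SE 0.12). In contrast miR-23b-3p had 34.2 and 33.1 units at 12 h and 33.8 and 38.6 at 0 h, and miR-27b-3p 632.6 and 677.4 at 12 h and 684 and 639.8 at 0 h, with overlapping groups in both. The passenger strands rose by a log2 change of 1.05 for miR-24-2-5p and 0.94 for miR-27a-5p, and miR-24-3p, which both clusters encode, had 235.4 and 237.2 units at 12 h and 167.5 and 196.8 at 0 h (log2 0.38, SE 0.11, adjusted p = 0.027). Of the 10 tested arms of both clusters together, 6 rose and none fell, beside 8.96% of all arms that rose, with a median of 0.38. The count of 6 was the same under median-ratio and TMM scaling and with edgeR and DESeq2, and it was 4 without 12 h replicate 1, 12 h replicate 2 or 0 h replicate 1, since the copies of miR-24-3p were then not called.

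Other named rises of abundant arms were smaller. The 3 copies of miR-9-5p, a microRNA of neural progenitors, share 1 sequence and had 100.7 and 109.7 units each at 12 h and 70.0 and 73.5 at 0 h (log2 0.55, SE 0.11, limma adjusted p = 0.0033). They were not called without 12 h replicate 2 (adjusted p = 0.064 for the first copy). From the imprinted Dlk1-Dio3 locus, miR-337-5p had 274.8 and 278.7 units at 12 h and 215.1 and 200.9 at 0 h (log2 0.41, SE 0.10; not called without 12 h replicate 1 or 12 h replicate 2), and miR-543-3p 588.4 and 573.7 at 12 h and 461.5 and 420.9 at 0 h (log2 0.40, SE 0.12, adjusted p = 0.032). The call of miR-543-3p was lost under 7 of 16 alternatives, among them TMM scaling, median-ratio scaling and the fits without 12 h replicate 1, 12 h replicate 2 or 0 h replicate 2, and its adjusted p ranged from 0.0095 to 0.17. In all, 12 of the 195 arms with a mean of at least 50 units rose and 28 fell, beside 8.96% and 15.8% of all tested arms.

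The miR-302 cluster, with its member miR-367, was lower at 12 h, before the steep increase that it shows later. All 5 tested 3p arms (GRCm38.p6, chr3:127545238-127545800, plus strand) and 1 of the 4 tested 5p arms fell, beside 15.8% of all arms. The median of the 9 arms was −0.41, against −0.09 for all arms. Levels of miR-302b-3p were 1032 and 1054 at 12 h and 1244 and 1409 at 0 h (log2 −0.34, SE 0.11, limma adjusted p = 0.045). That call was lost under 8 of 16 alternatives, among them edgeR, a replicate block (adjusted p = 0.0516) and the fits without 12 h replicate 1, 12 h replicate 2 or 0 h replicate 2, and its adjusted p ranged from 0.014 to 0.22. Levels of miR-302d-3p were 388 and 384 at 12 h and 533.5 and 492.6 at 0 h (log2 −0.41, SE 0.10, adjusted p = 0.0096). For miR-302a-3p they were 104.9 and 110.8 at 12 h and 143.9 and 172 at 0 h (log2 −0.54, SE 0.11, adjusted p = 0.0040). In each of these arms both 12 h libraries lay below both 0 h libraries.

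The scarcer arms that fell had log2 changes of −0.79 to −0.66. The arm miR-302c-3p had 9.67 and 10.9 units at 12 h and 14.6 and 18.1 at 0 h (log2 −0.66), its partner miR-302c-5p had 2.76 and 2.997 at 12 h and 4.93 and 5.18 at 0 h (log2 −0.79), and miR-367-3p had 2.38 and 2.80 at 12 h and 3.87 and 4.92 at 0 h (log2 −0.73). Not called were miR-302a-5p, with 226.4 and 226.9 units at 12 h and 302.8 and 252.2 at 0 h (log2 −0.29, adjusted p = 0.065), miR-302b-5p (log2 −0.09) and miR-302d-5p (log2 −0.02). The whole cluster held 1.61% and 1.64% of the signal at 12 h and 2.05% and 2.15% at 0 h. Its later shares were 2.25% and 2.46% at 24 h and 8.82% and 7.92% at 48 h. An exact permutation test of these shares cannot go below p = 0.333 with 2 libraries against 2. The count of 6 falls was 4 with edgeR or without 12 h replicate 2, and 1 without 12 h replicate 1. The median lay between −0.47 and −0.36 over the scalings and tools tried.

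Most arms of the X-linked miR-106a-363 cluster, a paralog of miR-17-92, were lower at 12 h. Of its 12 tested arms 8 fell and none rose, beside 15.8% of all arms that fell, with a median of −0.48 (GRCm38.p6, chrX:52741697-52742563, minus strand). Levels of miR-106a-5p were 141.9 and 152.9 at 12 h and 234.8 and 300.3 at 0 h (log2 −0.85, SE 0.13, limma adjusted p = 6.1e-04). Those of miR-20b-5p were 335.9 and 349 at 12 h and 499.4 and 615.5 at 0 h (log2 −0.70, SE 0.12). Both 12 h libraries lay below both 0 h libraries, although the 0 h libraries themselves stood apart.

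The 0 h libraries were closer to each other for the next members. The arm miR-363-3p had 434.8 and 438.5 units at 12 h and 711.5 and 684.7 at 0 h (log2 −0.68, SE 0.10, limma adjusted p = 4.5e-04), and miR-18b-5p had 128.6 and 133.4 at 12 h and 203.2 and 207.6 at 0 h (log2 −0.65, SE 0.10, adjusted p = 7.1e-04). The remaining falls were miR-363-5p, miR-18b-3p, miR-19b-2-3p and miR-92a-2-3p, at −0.68 to −0.36, and the mature sequences of the last pair also occur in the miR-17-92 cluster. With each RefSeq-matched mature sequence counted once, a setting chosen after seeing the data, 6 of 10 arms of the miR-106a-363 list fell. The miR-17-92 arm miR-92a-1-3p, with the mature sequence of miR-92a-2-3p, was not called (log2 −0.02, against −0.36 for miR-92a-2-3p). The cluster held 1.41% and 1.46% of the signal at 12 h and 2.07% and 2.30% at 0 h. Its later shares were 2.39% and 2.67% at 24 h and 4.81% and 5.28% at 48 h. The count of falls was 7 or 8 under median-ratio and TMM scaling and with edgeR and DESeq2, and it was 5 without 12 h replicate 1 and 5 without 12 h replicate 2.

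In the autosomal miR-17-92 cluster 1 of 9 tested arms fell, miR-17-5p with 497.8 and 520.4 units at 12 h and 602.3 and 759.1 at 0 h (log2 −0.41, SE 0.12, limma adjusted p = 0.023). No arm of that cluster was called without 12 h replicate 1, 12 h replicate 2 or 0 h replicate 2, and 4 were called lower without 0 h replicate 1. Its most abundant arm, miR-92a-1-3p, had 2436 and 2358 units at 12 h and 2484 and 2385 at 0 h, with overlapping groups. The abundant miR-20a-5p had 1064 and 1120 units at 12 h and 1205 and 1413 at 0 h (log2 −0.26, adjusted p = 0.12). In the miR-106b-25 cluster none of 6 arms was called by limma, although all 6 had a negative log2 change, at −0.30 to −0.04. Of the 6, 2 had an unadjusted p below 0.05, beside 282 of all 714 arms. By DESeq2 1 of the 6 was lower, and by edgeR none. Differences between these paralogous clusters were not tested. Added over the 6 arms of the seed AAAGUGC, the signal was 2518 and 2648 units at 12 h and 3107 and 3720 at 0 h (log2 −0.40, SE 0.10, adjusted p = 0.0049 over seed families).

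The miR-290 cluster (GRCm38.p6, chr7:3218639-3220837, plus strand) changed little. Of its 14 tested arms 1 rose and none fell, and the median was −0.0037. At an unadjusted p below 0.05, 3 arms were higher and 2 lower, beside 282 of all 714 arms in either direction. Of the count tests, edgeR called 1 rise, and DESeq2 1 rise and 1 fall. The exception was the scarce miR-290-3p, with 18.9 and 19.9 units at 12 h and 12.9 and 15.3 at 0 h (log2 0.46, SE 0.13, limma adjusted p = 0.025), whose call was lost when either 12 h library or 0 h replicate 1 was left out. The most abundant arms had log2 changes of opposite sign and did not pass the test: miR-292-5p had 14160 and 14020 units at 12 h and 12370 and 11740 at 0 h (log2 0.23, SE 0.09, adjusted p = 0.075), while miR-293-3p had 10260 and 10160 at 12 h and 11590 and 11780 at 0 h (log2 −0.19, SE 0.08, adjusted p = 0.088). In both arms the groups did not overlap.

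The miR-290 arms with the seed of miR-302 lay near no change. Levels of miR-295-3p were 4746 and 4476 at 12 h and 4709 and 4676 at 0 h (log2 −0.03, SE 0.10), those of miR-294-3p 3062 and 2905 at 12 h and 3080 and 3285 at 0 h (log2 −0.09, SE 0.10), and those of miR-291a-3p 1923 and 1961 at 12 h and 1859 and 2323 at 0 h (log2 −0.10, SE 0.11). The arm miR-292-3p had 5150 and 5219 units at 12 h and 4108 and 4568 at 0 h (log2 0.26, adjusted p = 0.095), and miR-291a-5p had 1122 and 1076 units at 12 h and 1271 and 1248 at 0 h (log2 −0.20, adjusted p = 0.16). The remaining 6 arms, miR-293-5p, miR-290-5p, miR-294-5p, miR-295-5p, miR-291b-3p and miR-291b-5p, ranged from −0.25 to 0.13 and were not called. Joined over miR-295-3p, miR-294-3p, miR-291a-3p, miR-302b-3p and miR-302d-3p, without miR-302a-3p, which had no matched sequence, the seed AAGUGCU summed to 11150 and 10780 units at 12 h and 11430 and 12180 at 0 h (log2 −0.11, SE 0.09, adjusted p = 0.36). When the fit held only the 4 libraries of 12 h and 0 h, miR-292-5p, miR-292-3p, miR-293-3p and miR-291b-5p were called as well.

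**Figure D3:**
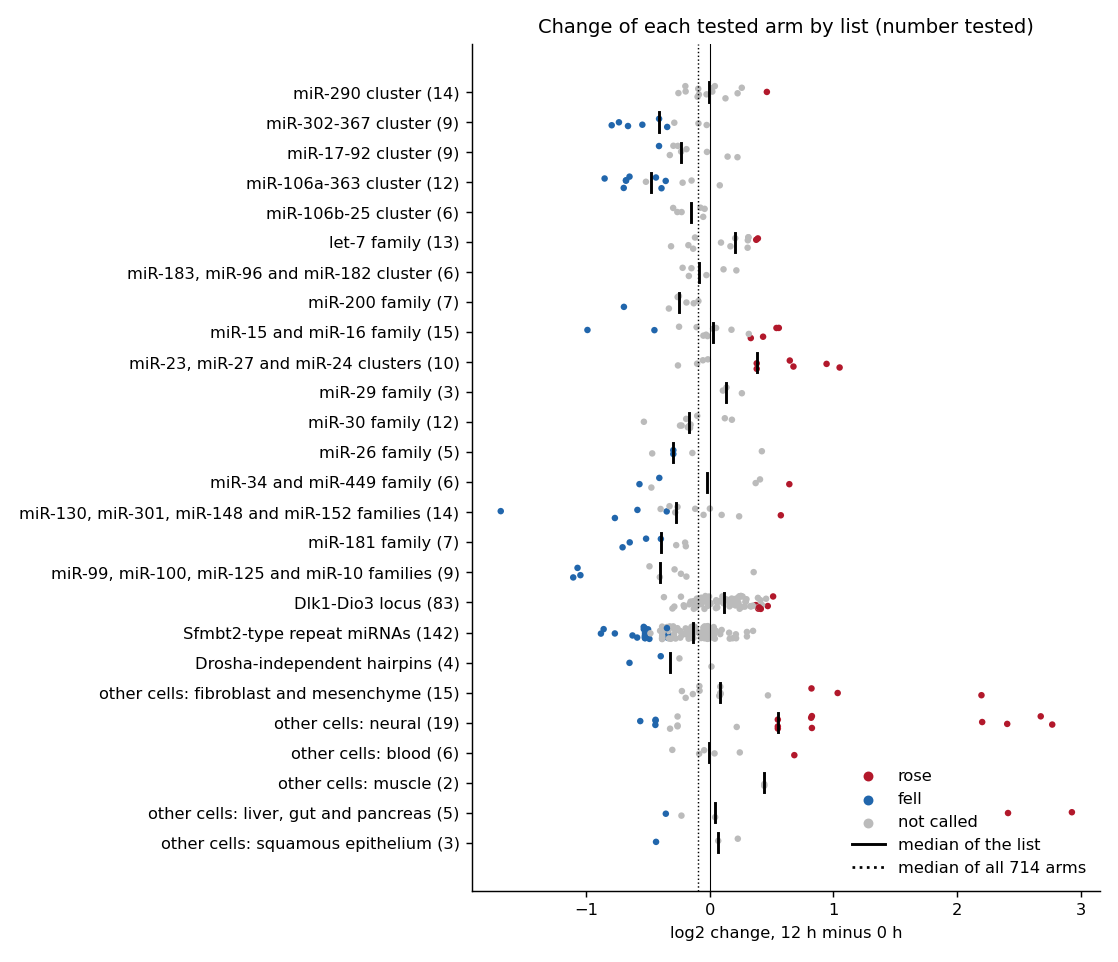
Log2 change (12 h minus 0 h) of every tested arm in each list with at least 2 tested arms, coloured by the limma call, with the list's median as a bar and the median of all 714 arms (−0.09) as a dotted line. The miR-302 and miR-106a-363 clusters sit to the left at −0.41 and −0.48, the miR-290 cluster sits at −0.0037, and the neural list is spread from −0.56 to 2.77.

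The strongest falls were those of scarce arms. The arm miR-152-5p, from an intron of Copz2, had 0.460 and 0.451 units at 12 h, or 29 and 31 reads, against 1.79 and 1.59 at 0 h, or 99 and 79 reads (log2 −1.69, SE 0.26, limma adjusted p = 6.1e-04). Both arms of miR-700 fell, miR-700-3p with 3.55 and 3.50 units at 12 h and 9.01 and 9.66 at 0 h (log2 −1.38, SE 0.16, adjusted p = 1.2e-04). The next were miR-326-3p from the Arrb1 gene, with 0.794 and 0.682 units at 12 h and 1.83 and 2.00 at 0 h (log2 −1.27), and miR-455-3p from Col27a1, with 0.696 and 0.567 units at 12 h and 1.45 and 1.78 at 0 h (log2 −1.23). Last among the named falls was miR-488-3p from Astn1, with 0.301 and 0.204 units at 12 h and 0.777 and 0.627 at 0 h (log2 −1.20, adjusted p = 0.016), which was not called when 12 h replicate 2 or either 0 h library was left out. In all 5 arms both 12 h libraries lay below both 0 h libraries.

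Among arms at a higher level, the miR-125b copies, relatives of the worm developmental timer lin-4, were among the falls of at least 2-fold. The first copy, miR-125b-1-5p, had 7.11 and 7.24 units at 12 h and 13.9 and 16.5 at 0 h (log2 −1.07, SE 0.13, limma adjusted p = 1.8e-04), and it went on to 4.19 and 4.78 at 24 h and 1.24 and 1.25 at 48 h. The Trpm1 intronic miR-211-5p had 22.3 and 21.2 units at 12 h and 38.5 and 38.9 at 0 h (log2 −0.83, SE 0.13, adjusted p = 6.4e-04), followed by 6.78 and 8.41 at 24 h and 0.963 and 1.04 at 48 h. The epithelial miR-200a-3p had 230.8 and 221 units at 12 h and 370.4 and 360.3 at 0 h (log2 −0.69, SE 0.11, adjusted p = 6.1e-04), but 348.6 and 304.1 at 24 h and 530.2 and 474.4 at 48 h. For miR-200a-3p the 12 h libraries were the lowest of the 8, whereas for miR-211-5p and miR-125b-1-5p each later time was lower still.

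In the miR-200 family as a whole 1 of 7 tested arms was called lower, beside the 15.8% of all arms that fell. All 7 had a negative log2 change, at −0.69 to −0.09, and 3 had an unadjusted limma p below 0.05, beside 282 of all 714 arms. The arm miR-200b-3p, encoded beside miR-200a, had 107.4 and 105.4 units at 12 h and 121.5 and 133.5 at 0 h (log2 −0.26, limma adjusted p = 0.077). Under TMM scaling 3 of the 7 arms were called lower.

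Other named falls of abundant arms were those of miR-5117-5p, miR-532-5p, miR-298-5p and miR-378a-3p. The arm miR-5117-5p had 43.8 and 50.1 units at 12 h and 70.0 and 113 at 0 h (log2 −0.92, SE 0.22, limma adjusted p = 0.0083), and without 0 h replicate 2 the change was −0.58 and not called. The X-linked miR-532-5p, from an intron of Clcn5, had 79.4 and 74.4 units at 12 h and 119.1 and 109.8 at 0 h (log2 −0.57, SE 0.11). From the imprinted Gnas region, miR-298-5p had 158 and 160.7 units at 12 h and 218.7 and 243.8 at 0 h (log2 −0.53, SE 0.10). The arm miR-378a-3p, from an intron of Ppargc1b, had 303.8 and 292.7 units at 12 h and 391.8 and 429.8 at 0 h (log2 −0.46, SE 0.12, adjusted p = 0.016), and it lost its call without 0 h replicate 2 and without either 12 h library.

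Among the 20 most abundant arms 4 were called: miR-21a-5p rose, and miR-148a-3p, miR-302b-3p and miR-26a-5p fell, whose other copy lies just outside these 20 with nearly the same values. The arm miR-148a-3p had 1585 and 1729 units at 12 h and 2245 and 1976 at 0 h (log2 −0.35, SE 0.11, limma adjusted p = 0.042), and miR-26a-2-5p 893.6 and 866.9 at 12 h and 1150 and 1013 at 0 h (log2 −0.29, SE 0.10, adjusted p = 0.0498). These falls are marginal: miR-148a-3p and miR-302b-3p each lost the call under 8 of 16 alternatives and miR-26a-2-5p under 12 of 16. The others of the 20 were not called. The copies of miR-7a-5p, read at both hairpins, had 4335 and 4352 units at 12 h and 4284 and 3507 at 0 h in the first copy (log2 0.16, adjusted p = 0.25). The sensory and stem cell microRNAs miR-183-5p (2317 and 2248 units at 12 h, 2669 and 2467 at 0 h, adjusted p = 0.19) and miR-182-5p (1951 and 1962 at 12 h, 2170 and 2390 at 0 h, adjusted p = 0.21) did not pass the test. The Dlk1-Dio3 arm miR-127-3p had 1866 and 1935 units at 12 h and 1958 and 1827 at 0 h, with overlapping groups, and miR-541-5p 1280 and 1273 at 12 h and 1170 and 1043 at 0 h (adjusted p = 0.13).

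**Figure D4:**
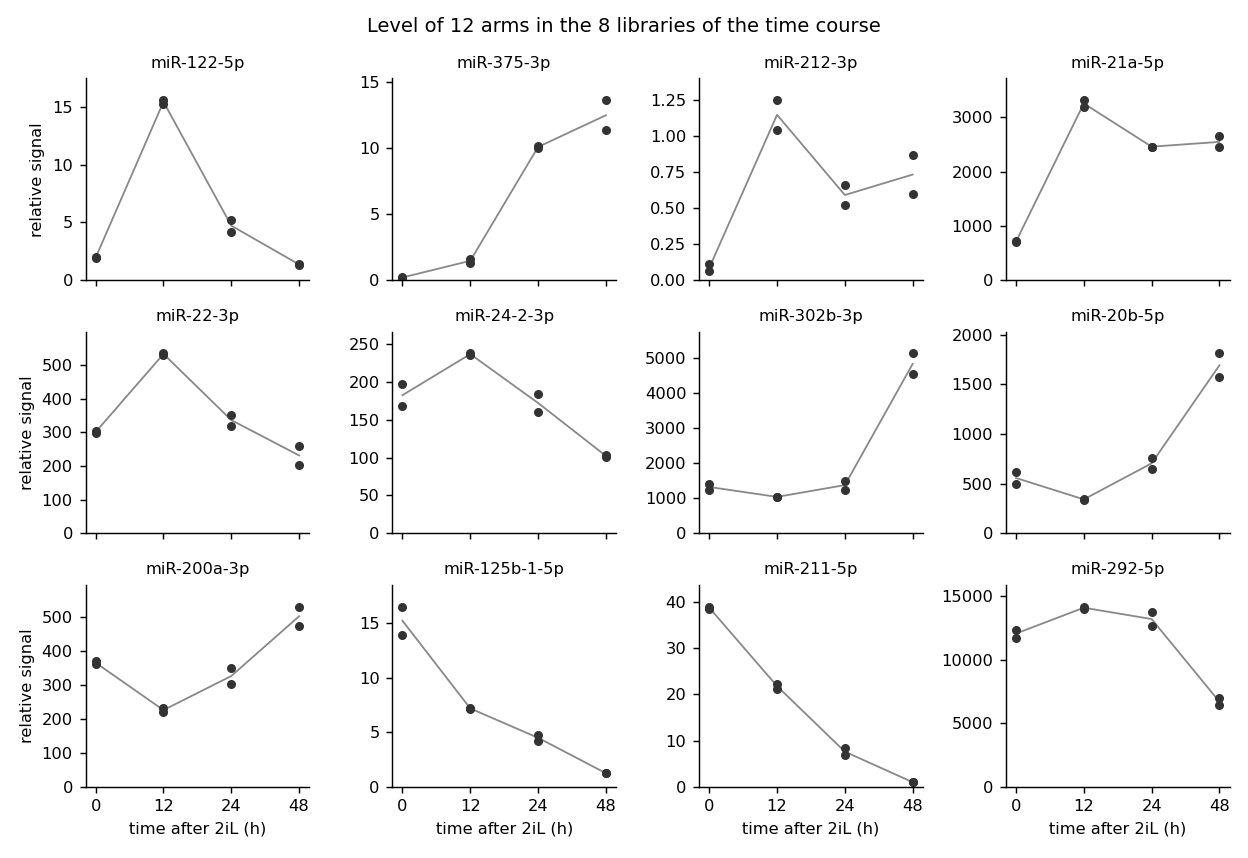
Relative signal of 12 arms in the 8 libraries of the time course (0, 12, 24 and 48 h, points for libraries, line through the means, vertical axes from 0). For miR-122-5p, miR-22-3p and miR-21a-5p the 12 h libraries are the highest, for miR-302b-3p, miR-20b-5p and miR-200a-3p they are the lowest, and miR-125b-1-5p and miR-211-5p are lower at each later time.

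At 2 large loci many arms could be read together. The Dlk1-Dio3 locus, an imprinted domain whose microRNAs come from the maternal copy, held 12.1% and 12.2% of the signal at 12 h and 11.4% and 11.2% at 0 h. Of its 83 tested arms 6 rose and none fell, beside the 8.96% of all arms that rose, and the median change was 0.11. At an unadjusted p below 0.05, 18 were higher and 3 lower, beside 282 of all 714 arms in either direction. With edgeR 11 rose, after TMM scaling 2 rose and 2 fell, without 0 h replicate 2 there were 3 rises, and without 12 h replicate 1 or 12 h replicate 2 none was called. The Sfmbt2-type repeat microRNAs, a rodent-specific expanded group in an intron of Sfmbt2 with many near-identical copies, held 5.46% and 5.57% of the signal at 12 h and 6.02% and 6.30% at 0 h. Of 142 tested arms 22 fell and none rose, with a median of −0.14, and all 22 were among the 74 tested 5p arms, none among the 68 tested 3p arms. Over all arms 15.8% fell, 78 of 364 5p arms and 35 of 350 3p arms. For example miR-466e-5p had 16.2 and 14.9 units at 12 h and 21.7 and 23.4 at 0 h (log2 −0.53, limma adjusted p = 0.0045). The 22 arms are fewer distinct signals, since 6 miR-466b copies and miR-466o-5p have nearly the same values (10.6 and 11.3 units at 12 h, 15.2 and 16.3 at 0 h for miR-466b-1-5p). The number of falls was 6 without 12 h replicate 1, 11 without 12 h replicate 2, 14 without 0 h replicate 2, 38 after TMM scaling and 36 with DESeq2.

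The remaining lists moved in mixed ways. Their counts, here and in the paragraphs that follow, stand beside 8.96% of all tested arms that rose and 15.8% that fell. In the let-7 family 2 of 13 tested arms rose, the near-identical copies of let-7a, with 19.01 and 19.9 units at 12 h and 15.4 and 14.3 at 0 h for let-7a-2-5p (log2 0.39, limma adjusted p = 0.033), and the median was 0.21. Neither was called after TMM scaling or without 12 h replicate 1, 12 h replicate 2 or 0 h replicate 2, and 4 let-7 arms were called without 0 h replicate 1. The most abundant member, let-7g-5p, had 104.8 and 103.7 units at 12 h and 108.5 and 88.3 at 0 h with overlapping groups, and the let-7 share was 0.298% and 0.295% at 12 h and 0.286% and 0.242% at 0 h. In the miR-181 family 4 of 7 arms fell, among them miR-181d-5p with 153 and 145.4 units at 12 h and 218.8 and 175.8 at 0 h (log2 −0.39, adjusted p = 0.027). None of them was called without 12 h replicate 1 or 12 h replicate 2, and 2 were called without 0 h replicate 1 or with edgeR. In the miR-99, miR-100, miR-125 and miR-10 families the 3 falls among 9 arms were those of miR-125b.

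The cell cycle family miR-15 and miR-16 had 4 rises and 2 falls among 15 tested arms. The rises were both arms of miR-322 and of miR-195a, such as miR-195a-3p with 11.5 and 11.6 units at 12 h and 7.70 and 7.96 at 0 h (log2 0.56), and the falls were the passenger strands miR-15a-3p (log2 −0.99) and miR-16-1-3p (log2 −0.45). In the miR-130, miR-301, miR-148 and miR-152 families 4 of 14 arms fell and 1 rose. Of the p53 response family miR-34 and miR-449, miR-34a-5p fell (34.1 and 33.5 units at 12 h, 48.2 and 41.8 at 0 h, log2 −0.41) and miR-34b-5p rose (3.19 and 2.88 at 12 h, 2.21 and 1.64 at 0 h, log2 0.64), besides a fall of miR-449a-5p. Of the Drosha-independent hairpins 2 of 4 tested arms fell, miR-484-5p with 159.1 and 154.5 units at 12 h and 210.1 and 202.6 at 0 h (log2 −0.40) and miR-877-5p (log2 −0.65). No arm was called by limma in the miR-183, miR-96 and miR-182 cluster (6 tested), the miR-29 family (3) or the miR-30 family (12), where log2 changes ran from −0.53 to 0.26. At an unadjusted p below 0.05, 1 miR-30 arm was lower and none of the others differed, and edgeR and DESeq2 called none of these arms. Leaving out either 12 h library lost calls in the miR-15 and miR-16 family, among them all its rises. Calls of the miR-34 and miR-449 family and of the Drosha-independent hairpins were also lost without either 12 h library. The falls of the miR-130, miR-301, miR-148 and miR-152 families were 2 without 12 h replicate 1, 12 h replicate 2 or 0 h replicate 1.

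Markers of other cell types were counted as whole lists. In the fibroblast and mesenchyme list 3 of 15 tested arms rose, miR-21a-5p and both arms of miR-22, and the summed share was 3.68% and 3.80% at 12 h and 1.25% and 1.21% at 0 h. Other mesenchymal arms were not called: miR-199a-1-3p had 15.8 and 16.1 units at 12 h and 15.6 and 14.5 at 0 h (log2 0.09, limma adjusted p = 0.66), and miR-143-3p 207.3 and 214.1 at 12 h and 233.8 and 229.3 at 0 h (log2 −0.14, adjusted p = 0.33). In the neural list 10 of 19 tested arms rose, those of miR-9, miR-132 and miR-212, beside the 8.96% of all arms that rose, and 4 fell, the 5p arms of miR-124 and miR-219-1-5p. The rises include 6 arms of the 3 miR-9 copies. With each RefSeq-matched mature sequence counted once, a setting chosen after seeing the data, 6 of 15 arms rose and 4 fell. The median change was then −0.26, against 0.55 over the 19 arms. This setting joined the copies of miR-9 but not those of miR-124, which had no matched sequence. The 4 falls therefore still hold 3 copies of miR-124-5p with nearly the same change (log2 −0.44 each). The shift of the median depends on which copies were joined. Without 12 h replicate 1 there were 7 rises and no falls, and without 12 h replicate 2 there were 6 rises and no falls. The neuronal miR-124-3p had 20.4 and 20.4 units at 12 h and 22.7 and 26.4 at 0 h in its first copy (log2 −0.26, adjusted p = 0.12), and the list's share was 0.375% and 0.397% at 12 h and 0.299% and 0.312% at 0 h. With each RefSeq-matched mature sequence counted once, and the miR-124 copies still counted separately, that share was 0.187% and 0.193% at 12 h and 0.169% and 0.1755% at 0 h.

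The blood list had 1 rise among 6 tested arms, miR-155-5p with 2.51 and 2.14 units at 12 h and 1.37 and 1.44 at 0 h (log2 0.68, limma adjusted p = 0.016), while miR-142-3p (69.3 and 75.4 at 12 h, 68.0 and 81.8 at 0 h) overlapped between groups. In the muscle list neither of the 2 tested arms, copies of miR-1a-3p, was called by limma, edgeR or DESeq2 (both were higher at an unadjusted p below 0.05), and 6 of 18 arms were at 0 in all 4 libraries, and in the squamous epithelium list miR-205-5p fell (77.4 and 74.8 units at 12 h, 96.6 and 109.4 at 0 h, log2 −0.43). The calls of miR-155-5p, miR-205-5p and miR-194-2-5p were lost without 12 h replicate 1 and without 0 h replicate 2. The first was also lost without 0 h replicate 1, and the others without 12 h replicate 2. Of the defining arms, none of the fibroblast or squamous lists, 1 of the neural list and 2 of the blood list were at 0 in all 4 libraries. What part cells of other types had in these values was not tested.

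Grouping by seed joined the arms that can read the same target sites. RefSeq gave a mature sequence for 469 of the 714 tested arms, which hold 84.4% to 86.2% of the signal, and these formed 343 seed families. Of these 110 differed (32.1%), 44 higher (12.8%) and 66 lower (19.2%) at 12 h. Among the 69 families of 2 or more arms, 11 rose and 18 fell. Since miR-122-5p and miR-375-3p had no matched sequence, they are in no seed family. Among the families the largest rises were those of the seeds CCUUGGC (miR-212-5p, log2 2.68), AACAGUC (miR-132-3p and miR-212-3p, 2.53), ACCGUGG (miR-132-5p, 2.40), AGCUUAU (miR-21a-5p with miR-21c-5p, 2.20) and UUCCUCA. The last holds miR-670-3p alone, with 12 and 23 reads at 12 h against 0 and 1 reads at 0 h, too few for a fold change.

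The largest falls by seed were AGGUUCU (miR-152-5p), ACGCGGG (miR-700-3p), CAGUCCA (miR-455-3p), UGAAAGG (miR-488-3p) and CGGGUUA (miR-125b-1-3p, log2 −1.05), each a single arm. Among families of several arms, AACACUG (miR-200a-3p with miR-141-3p) had 234.2 and 224.3 units at 12 h and 374.4 and 364.3 at 0 h (log2 −0.69, SE 0.10, limma adjusted p = 3.1e-05). The seed AUUGCAC joins 7 arms, from the miR-17-92, miR-106a-363, miR-106b-25 and miR-302 clusters and from hairpins outside them. It had 3757 and 3723 units at 12 h and 4233 and 4224 at 0 h (log2 −0.18, SE 0.09, limma adjusted p = 0.12). The fall of miR-363-3p was therefore not shown for its whole seed family. Without 12 h replicate 1 the number of families called was 51, and without 12 h replicate 2 it was 59.

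The arms of a hairpin were compared to see whether the mature strands of 1 precursor moved together. Of 253 hairpins with both arms tested, both arms rose in 14 and both fell in 12, and in none did 1 arm rise while the other fell. In 61 hairpins 1 arm fell alone, the 5p arm in 46 and the 3p arm in 15, in 17 hairpins 1 arm rose alone, and in 149 neither arm was called. No ratio of 5p to 3p passed the test (0 of 253, 0%), 55 ratios had an unadjusted p below 0.05, and the smallest limma adjusted p was 0.088. With a pseudocount of 1, with no filter on the mean and with a mean of at least 5 units, the calls were 1, 2 and 3. The lowest p-values were those of miR-152, where the log2 ratio of 5p to 3p was −2.81 and −2.92 at 12 h and −1.39 and −1.76 at 0 h, and of miR-466a and miR-466d. A change of arm preference was therefore not shown for any hairpin by limma at the main settings.

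**Figure D5:**
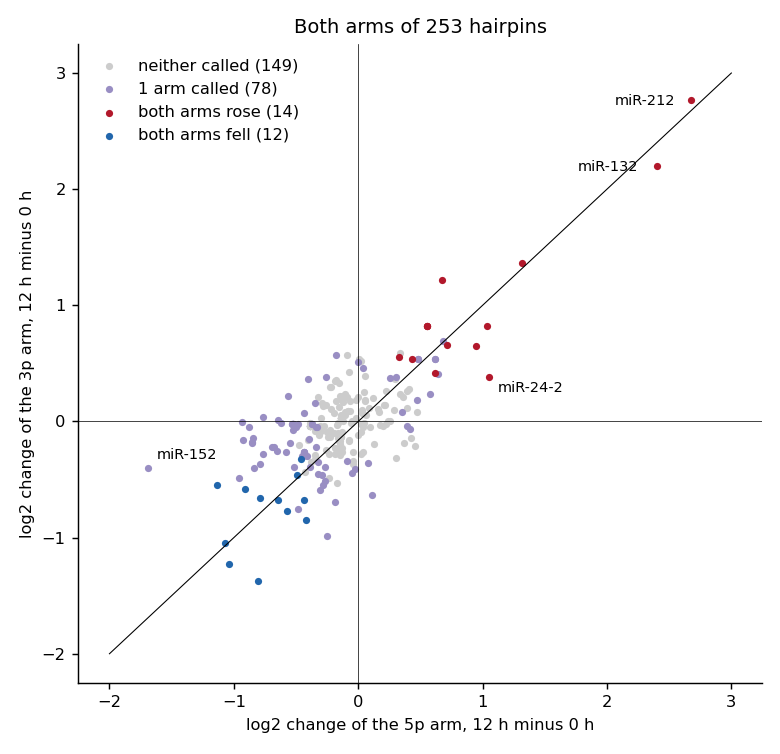
Log2 change of the 5p arm (horizontal) and of the 3p arm (vertical), 12 h minus 0 h, for 253 hairpins with both arms tested, with the line of equal change. The 14 hairpins with both arms up (red) and the 12 with both arms down (blue) lie in the upper right and lower left, miR-152 lies off the line at −1.69 and −0.40, and no hairpin has 1 arm called higher and the other called lower.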

How the data were processed

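Small RNA was extracted with Trizol and made into TruSeq small RNA libraries, per the labels' protocols. The deposited table gives a relative signal per hairpin arm, scaled by the authors so that each library sums to 110000, which is 2 read tables scaled to 55000 each. The submitters' processing notes name STAR 2.5.0, Cufflinks 2.2.1 and mm10 without saying which step used them. The aligner and the rule that gives a read to an arm are not given in the sources used here. All values below 100 reads could be written as whole reads of the 2 tables within 0.01 reads. The worth of 1 read differs slightly between the 2 tables. Nearly any value at the upper end of this range could therefore be written so, and the match is a check only at low values. Read numbers recovered in this way were used for edgeR and DESeq2, and counting limits cover counting error only. Reads that match several hairpin copies can appear at each copy. Among the 469 tested arms with a RefSeq match, 33 mature sequences were shared by 72 arms. For 23 of the 33 the copies differed by under 0.1 log2. The 245 tested arms without a match were not assessed, so further copies, such as those of miR-124, are not in this count.

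Because the deposited signal is normalized, arms with a mean of at least 0.5 over the 8 small RNA libraries were tested on log2(signal + 0.1) with limma 3.58.1 (R 4.3.3), with a mean for each of 4 times, an intensity trend and Benjamini-Hochberg adjustment at 0.05 over all tested arms. Fold changes understate the change of low arms on this scale. Seeds are bases 2 to 8 of RefSeq sequences (GRCm38.p6), and seed families were summed before the same test. Ratios of 5p to 3p were tested without the intensity trend. Named arms are the 20 most abundant, the 10 largest called rises and falls at a mean of at least 50, the 5 largest of each at any level, and the tested arms of the miR-290 and miR-302 clusters. Other arms are examples taken from 27 lists. Members, lists and examples were chosen with earlier results of these data known. Replicate numbers were not treated as pairs. Alternatives were edgeR 4.0.16, DESeq2 1.42.0, other scalings, filters and pseudocounts, a replicate block and leaving out each library. Only the limma fit of arms was tested on simulated data, which were drawn with the same spread for every arm. Lists were summarised in Python 3.11.15.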

Additional observations from a re-analysis of the deposited data

How the results depend on the processing

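With a mean of at least 5 units as the filter, 116 arms were called, 39 of them higher, and 67 seed families. Leaving out each of the 4 libraries in turn gave 68 to 182 arms called, 30 to 59 rises, 38 to 123 falls, 51 to 106 seed families. The arm ratios called were 1 with a pseudocount of 1, 2 with no filter on the mean and 3 with a mean of at least 5 units. With every RefSeq-matched mature sequence counted once, a setting chosen after seeing the data, 157 arms were called. The 245 tested arms without a match were kept as they were, so copies among them were still counted separately. The replicate numbers did not pair the libraries (correlation of deviations 0.108 between 12 h and 0 h, and −0.297 to 0.279 over the 6 pairs of times), and with a replicate block 169 arms and 107 seed families were called. Of the 62 named arms 38 were called, 19 of them under every alternative that tested them. Not every arm entered all 16 alternatives. The filter at a mean of at least 5 units kept 30 of the 38, so the scarcest arms were not tested there. No named arm changed sign while called. Fewer libraries were kept in the leave-one-out fits. Arms below about 1 unit rest on under 100 reads in each library.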

Other observations

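A group of hairpins outside the lists, from an intron of the X-linked gene Clcn5, was picked after its values were seen, and no test of the group was made. Of the 8 tested arms of miR-188, miR-362, miR-500, miR-501 and miR-532, 5 fell in limma and none rose, beside 15.8% of all arms that fell. The arm miR-532-5p is described above. The arm miR-532-3p changed by −0.77 on the log2 scale, miR-362-5p by −0.84, miR-188-5p by −0.85 and miR-501-5p by −0.96, while miR-501-3p, miR-362-3p and miR-500-3p were not called.

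Among the neighbours of miR-298 in the imprinted Gnas region, miR-296-5p fell by 0.39 on the log2 scale, whereas miR-296-3p was not called (log2 change −0.39, adjusted p = 0.052).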
